A study of Mus musculus with 47 samples.

Results

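The 10 genes described here encode cell-cell junction proteins, 7 cadherins and 3 connexins. They were followed by RNA-seq in sorted luminal and basal cells of the mouse mammary gland through a reproductive cycle. The rule lists them by name and sets no limit on their measured levels, and all 10 were found among the 17078 genes of the deposited table. The cadherins were *Cdh1* (E-cadherin, ENSMUSG00000000303), *Cdh2* (N-cadherin, ENSMUSG00000024304), *Cdh3* (P-cadherin, ENSMUSG00000061048), *Cdh4* (R-cadherin, ENSMUSG00000000305), *Cdh5* (VE-cadherin, ENSMUSG00000031871), *Cdh6* (K-cadherin, ENSMUSG00000039385) and *Cdh13* (T-cadherin, ENSMUSG00000031841). The connexins were *Gja1* (connexin 43, ENSMUSG00000050953), *Gjb2* (connexin 26, ENSMUSG00000046352) and *Gjb1* (connexin 32, ENSMUSG00000047797). Not all of the cadherins are classical in the strict sense, because *Cdh13* encodes a protein anchored in the membrane by a lipid tail and lacks the catenin-binding tail of the others.

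All mice were of the FVB/N strain, and both cell types of each sort came from the mammary glands of several pooled mice, depleted of cells carrying lineage markers of endothelium (CD31), fibroblasts (CD140a) and blood. Luminal cells were Lin-CD24+CD29lo and basal cells Lin-CD24+CD29hi, with gates that the methods describe as slightly adjusted between sorts. The 8 time points were 10 weeks (W10) and 4 months of age (M4) without a pregnancy, early (day 3.5, P3.5) and mid pregnancy (day 14.5, P14.5), early lactation (day 3, L3) and established lactation (day 10, L10), and involution at 2 days (Id2) and 4 weeks (Iw4) after weaning. M4 mice were the age-matched controls of the Iw4 mice, and the mice of the pregnancy, lactation and involution groups had been mated at the age of 8 weeks. "Non-pregnant" below means W10 and M4 only, although the labels also place Iw4 in that stage. Of the 46 libraries, 24 were luminal and 22 basal, with 3 replicates for each time point and cell type except basal P14.5 and basal L10, which had 2. The libraries held between 4398806 and 20023054 reads on genes, so that 3 reads, taken as the smallest level that can be measured, correspond to 0.17 to 1.05 CPM. CPM stands for read counts that the authors divided by each library's effective size and put on a common scale. The values of a library do not add up to a fixed total. Their sum ran from 675541 CPM in luminal Iw4 replicate 6 to 2909040 CPM in luminal L3 replicate 6.

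Cadherins join neighbouring cells through their extracellular domains, and the cytoplasmic tails of the classical members bind catenins that link the junction to actin. Connexins assemble into gap junction channels through which ions and small molecules pass between adjacent cells. In the mammary gland, luminal cells line the ducts and alveoli and secrete milk, whereas basal cells, most of them myoepithelial, contract to eject it. E-cadherin is the main cadherin of luminal cells, P-cadherin marks the myoepithelium, and VE-cadherin is the cadherin of blood vessel endothelium. Connexin 43 is the known myoepithelial connexin, while connexins 26 and 32 are the known connexins of secretory luminal cells.

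Upstream sequences are shown for the 2 connexins with opposite distributions, *Gja1* (basal) and *Gjb2* (luminal), and for *Cdh6*, a basal cadherin near the floor in luminal cells. They are the 250 bases before the RefSeq start of each gene in build GRCm38.p6, in lower case with motif matches in capitals, and lie at chr10:56377050-56377299 on the plus strand (*Gja1*), chr14:57104703-57104952 on the minus strand (*Gjb2*) and chr15:13173676-13173925 on the minus strand (*Cdh6*). *Gjb1* has 4 annotated starts and is not shown. The motifs searched on both strands were an E-box read by Snail family repressors (CAGGTG or CACCTG), the AP-1 element (TGAGTCA or TGACTCA) and the GC box (GGGCGG or CCGCCC).
Gja1: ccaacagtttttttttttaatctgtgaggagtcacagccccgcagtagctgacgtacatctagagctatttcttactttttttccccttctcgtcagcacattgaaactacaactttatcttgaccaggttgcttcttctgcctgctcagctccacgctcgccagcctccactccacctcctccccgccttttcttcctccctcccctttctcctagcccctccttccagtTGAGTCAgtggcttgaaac
Gjb2: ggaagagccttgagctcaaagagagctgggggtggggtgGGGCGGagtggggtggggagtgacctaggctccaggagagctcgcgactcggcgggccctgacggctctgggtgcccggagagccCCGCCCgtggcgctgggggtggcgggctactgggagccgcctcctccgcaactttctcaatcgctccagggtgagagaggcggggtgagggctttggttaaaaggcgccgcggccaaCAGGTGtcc
Cdh6: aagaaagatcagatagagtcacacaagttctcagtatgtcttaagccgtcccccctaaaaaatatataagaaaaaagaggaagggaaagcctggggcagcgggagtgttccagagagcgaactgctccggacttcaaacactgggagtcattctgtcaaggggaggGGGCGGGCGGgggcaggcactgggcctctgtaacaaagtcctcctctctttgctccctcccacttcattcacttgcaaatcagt

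The *Gja1* window holds 1 AP-1 match, whose first base lies 19 bases before the start, and neither of the other motifs. The *Gjb2* window holds 1 E-box match, 9 bases before the start, and 2 GC boxes, at 211 and 126 bases. The *Cdh6* window holds 2 overlapping GC boxes at 84 and 80 bases and neither of the other motifs. Among all 32851 upstream windows of the same length, 17.2% hold the E-box, 4.46% the AP-1 element and 32.7% the GC box. These matches describe the letters only.

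Before the results, libraries that stand apart are described. The summed level of 9 basal markers (*Krt5*, *Krt14*, *Trp63*, *Acta2*, *Myh11*, *Oxtr*, *Cnn1*, *Tagln* and *Mylk*) was 12940 CPM or more in each of the 19 basal libraries outside Id2. In basal Id2 it was 1480 CPM in replicate 2, 18630 CPM in replicate 4 and 1135 CPM in replicate 6. None of the 9 markers was at 0 in these libraries, and *Acta2* was the most abundant of them in all 3. The sum is mostly smooth muscle genes, and by single markers all 3 libraries were low: all 9 in replicates 2 and 6, and 5 of 9 in replicate 4, lay below every other basal library. In replicate 4 these were *Krt5* at 156 CPM (at least 779 CPM outside Id2), *Krt14* at 49.0 CPM (at least 434), *Trp63* at 26.6 CPM (at least 457), *Oxtr* at 98.2 CPM (at least 462) and *Cnn1* at 316 CPM (at least 558), while *Acta2*, *Myh11*, *Tagln* and *Mylk* were in the range of the others. Basal Id2 replicate 2 also held 23710 CPM of 17 endothelial markers, led by *Vwf*, against at most 2511 CPM in any basal library outside Id2. Basal Id2 replicate 6 held 72330 CPM of 8 fibroblast markers, led by *Col1a1*, against at most 11910 CPM in the basal libraries outside Id2. Results that rest on replicates 2 and 6 are given with and without them, and what is left then rests on replicate 4, itself low in keratins and *Trp63*. Luminal Id2 replicate 6 held 5230 CPM of the fibroblast markers, led by *Col1a1*, against at most 818 CPM in the luminal libraries outside Id2. Luminal L10 replicate 5 held 2549 CPM of the basal markers, the highest sum among luminal libraries, with *Krt5* leading. In these bulk samples, a change in the number of cells of a type and a change in RNA per cell cannot be told apart.

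**Figure D1:**
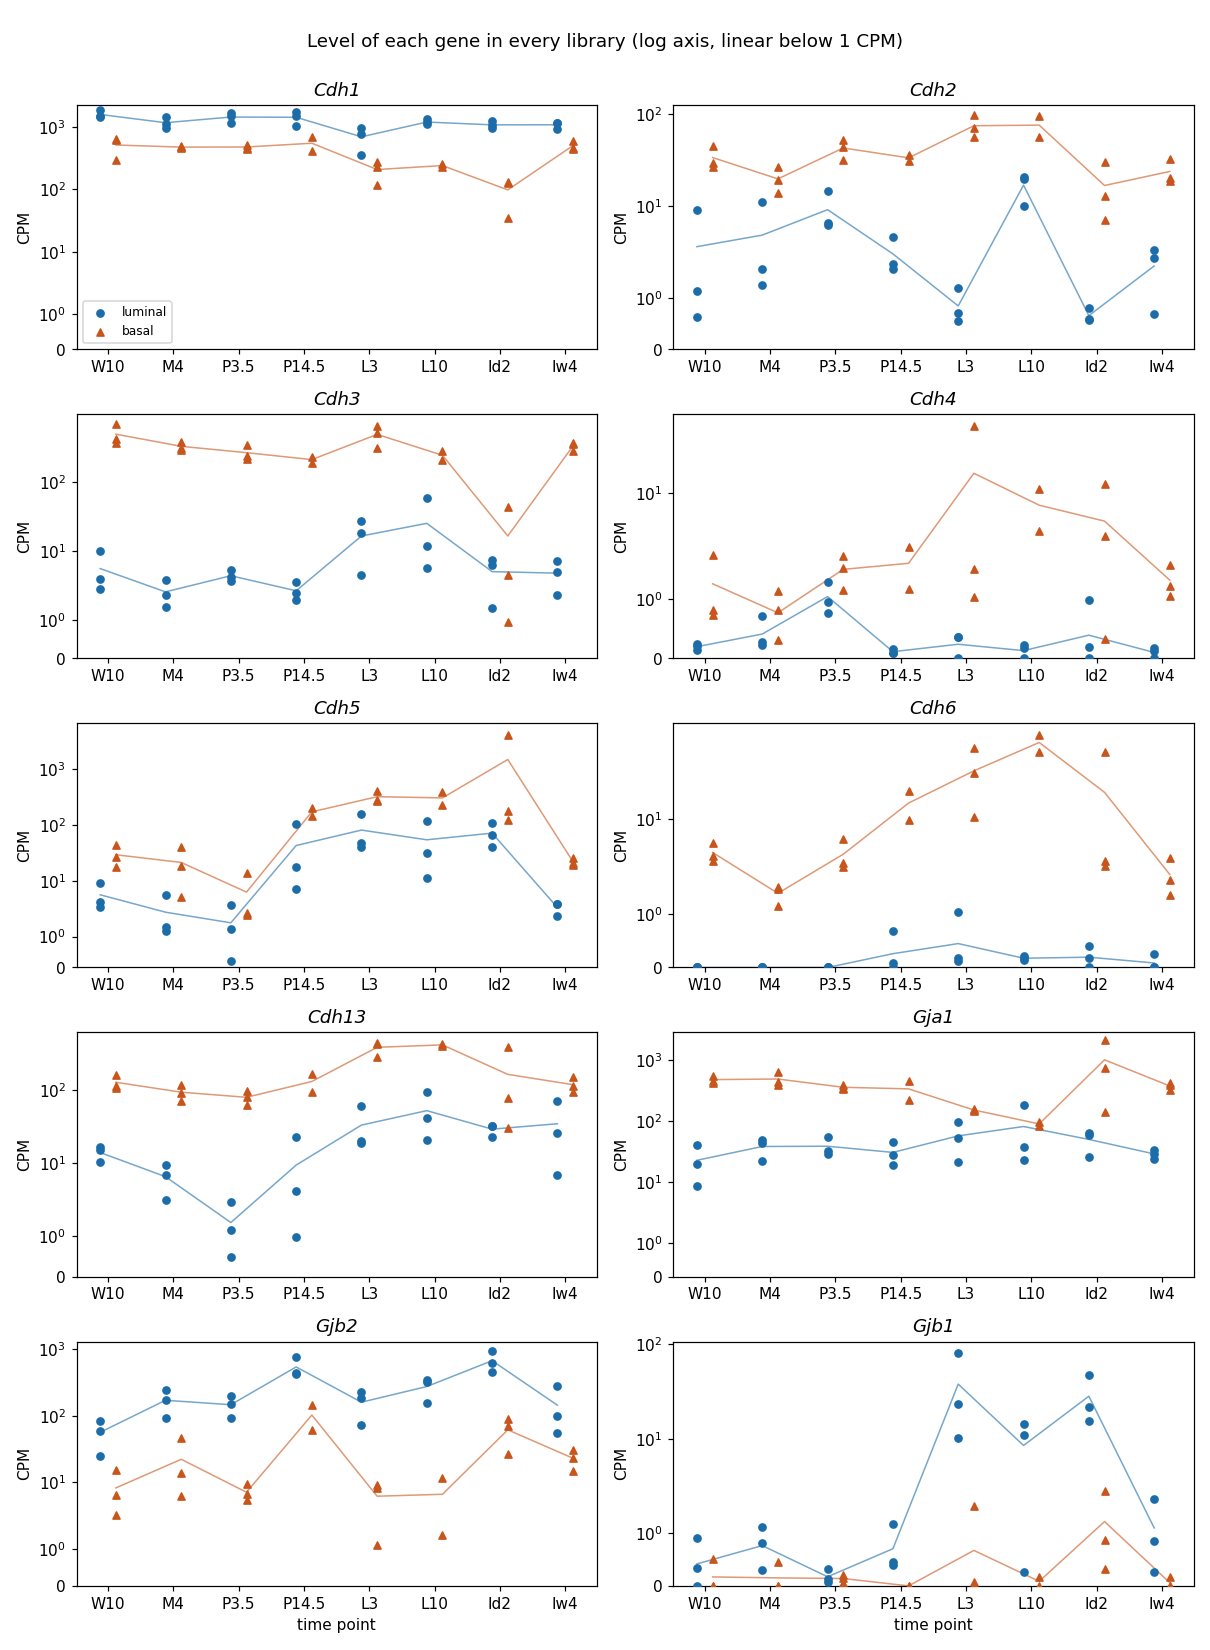
Level of each of the 10 genes (CPM, log axis that is linear below 1 CPM) in every library, by time point. Circles are luminal and triangles basal libraries, and lines join the means of the time points. *Cdh1* and *Gjb2* lie higher in luminal libraries at every time point, *Cdh6* stays at or under 1.05 CPM in all luminal libraries, and the mean of basal *Gja1* is lowest at L3 and L10.

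Divided by the exon length of the gene, so that genes can be compared, *Cdh1* was the most abundant of the 10 in both cell types by the mean over time points. This mean was 265 CPM per kb in luminal and 83.9 CPM per kb in basal cells (SD over the 8 time point means 60.7 and 37.8). At single time points *Cdh1* was first in luminal cells except at Id2, where *Gjb2* was higher (279 against 236 CPM per kb). In basal cells it was first at M4, P3.5, P14.5 and Iw4. *Cdh3* lay above it at W10 (113.6 against 112.4), L3 (112.7 against 45.6) and L10 (56.1 against 52.7), and *Cdh5* at L3 (76.3), L10 (72.6) and Id2 (353.7 against 21.5). In luminal cells *Gjb2* followed with 113 CPM per kb (SD 90.8). After it came *Cdh5* (7.80 CPM per kb), *Gjb1* (5.72), *Gja1* (4.27), *Cdh13* (2.03), *Cdh3* (1.91) and *Cdh2* (0.64), where each gene lay within the spread of its neighbours, and then *Cdh4* (0.05) and *Cdh6* (0.02). In basal cells *Cdh5* (70.3 CPM per kb) and *Cdh3* (68.6 CPM per kb) came next and did not differ from *Cdh1* beyond their spread. The *Cdh5* mean includes 4160 CPM in basal Id2 replicate 2, and its SD was 119 CPM per kb. Without that library the basal mean of *Cdh5* was 128 CPM in place of 295 CPM, so its place beside *Cdh3* rests on that library. *Gja1* (40.6 CPM per kb), *Cdh13* (17.1 CPM per kb) and *Gjb2* (12.3 CPM per kb) came next in basal cells. *Cdh2* (5.00), *Cdh6* (1.95), *Cdh4* (0.63) and *Gjb1* (0.19 CPM per kb) followed, and neighbours in this order lay within their spread.

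The first comparison asked how the 2 cell types divide these junction genes. Averaged over the time points, 7 members were higher in basal cells (*Cdh2*, *Cdh3*, *Cdh4*, *Cdh5*, *Cdh6*, *Cdh13* and *Gja1*) and 3 in luminal cells (*Cdh1*, *Gjb2* and *Gjb1*). Calls required at least a 2-fold difference and an adjusted p (limma, Benjamini-Hochberg over all genes) under 0.01. All 10 members passed, against 21% of all genes, of which 13.6% were higher in basal and 7.35% higher in luminal cells. All 10 also passed with all Id2 libraries left out and with edgeR on the recovered reads. With basal Id2 replicates 2 and 6 left out, every difference kept its direction. The basal Id2 library left then, replicate 4, was itself low in 5 of 9 basal markers.

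*Cdh1* ranged from 352 to 1851 CPM in luminal libraries (median 1169) and from 35.2 to 679 CPM in basal libraries (median 444). Its mean was 3.15-fold higher in luminal cells, a log2 difference (basal minus luminal, log2(CPM + 1)) of -1.84 ± 0.13 (SE, adjusted p = 5.14e-15, limma). The ranges of the cell types overlapped over the whole cycle, but within each time point every luminal library lay above every basal one. *Gjb2* ranged from 24.9 to 929 CPM in luminal libraries (median 189) and from 1.14 to 143 CPM in basal libraries (median 12.8). Its log2 difference was -3.56 ± 0.24 (adjusted p = 1.38e-15), and again the cell types did not overlap within any time point. *Gjb1* was near the floor in most libraries, with under 3 reads in 16 of 22 basal and 5 of 24 luminal libraries. Its log2 difference was -1.62 ± 0.22 (adjusted p = 4.97e-08).

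*Cdh3* ranged from 1.50 to 58.2 CPM in luminal (median 4.38) and from 0.94 to 700 CPM in basal libraries (median 303), and its mean was 35.9-fold higher in basal cells. Its log2 difference was 4.98 ± 0.25 (adjusted p = 2.15e-19). Outside Id2 no basal library came near the luminal range: the lowest held 193 CPM. *Cdh6*, a type II cadherin, had under 3 reads in 21 of 24 luminal libraries and held 1.22 to 75.1 CPM in basal libraries (median 4.01). Taken against the highest floor of 3 reads per library, its basal mean was at least 16.7-fold higher. *Gja1* ranged from 8.57 to 185 CPM in luminal (median 33.2) and from 85.1 to 2191 CPM in basal libraries (median 394). Its log2 difference was 3.08 ± 0.23 (adjusted p = 1.83e-14).

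*Cdh2* and *Cdh13* were 7.79-fold and 8.43-fold higher in basal cells by their means. *Cdh2* ranged from 0.54 to 20.9 CPM in luminal and from 7.03 to 98.0 CPM in basal libraries, and its log2 difference was 3.07 ± 0.19 (adjusted p = 1.72e-16). *Cdh13* ranged from 0.49 to 96.1 CPM in luminal and from 30.2 to 446 CPM in basal libraries, with a log2 difference of 3.40 ± 0.26 (adjusted p = 2.18e-14). *Cdh4* was scarce, with a basal median of 1.65 CPM and a luminal median of 0.19 CPM, and under 3 reads in 17 of 24 luminal libraries. *Cdh5* had a basal median of 42.0 CPM and a luminal median of 8.18 CPM. The differences of *Cdh4* (1.41 ± 0.23, adjusted p = 1.73e-06) and *Cdh5* (2.37 ± 0.33, adjusted p = 7.12e-08) were the smallest of the 7 on the log2(CPM + 1) scale, which understates the change of low genes such as *Cdh4*, for which edgeR gave a difference of 3.41. Their ratios of basal to luminal means each rested in part on 1 library: that of *Cdh4* was 13.8-fold, and 8.49-fold without L3 basal replicate 5, and that of *Cdh5* was 9.01-fold, and 3.91-fold without Id2 basal replicate 2. The endothelial marker sum had higher means in basal cells as well, with 261 against 125 CPM at W10, 222 against 58.6 CPM at M4, 953 against 255 CPM at P14.5, 1816 against 536 CPM at L3, 1759 against 483 CPM at L10 and 227 against 72.5 CPM at Iw4. At P3.5 the means were 55.3 and 48.9 CPM and the libraries overlapped, as they did at M4 and P14.5. The basal Id2 mean of 8543 CPM, against 399 CPM in luminal cells, was carried by replicate 2 with 23710 CPM. In the test over all time points 16 of 17 markers were called higher in basal cells (median 1.77). The part of endothelial RNA in the difference of *Cdh5* was not tested. Pericyte marker means were also higher in basal cells at M4 (175.9 against 129.5 CPM), P14.5 (1303 against 192 CPM) and L3 (4420 against 200 CPM). The same held at L10 (12830 against 226 CPM), Id2 (5681 against 255 CPM) and Iw4 (283 against 137 CPM). Pericyte marker means were lower in basal cells at W10 (112 against 194 CPM) and P3.5 (83.4 against 148 CPM). Fibroblast marker means were higher in basal cells at every time point, from 296.5 against 221.6 CPM at W10 to 8950 against 75.7 CPM at P14.5. The part of these markers in the cell type differences was not tested.

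Taken time point by time point, 50 of the 80 tests of a member passed, and every call had the direction of the average. The calls numbered 7 at W10, 6 at M4, 7 at P3.5, 5 at P14.5, 8 at L3, 8 at L10, 6 at Id2 and 3 at Iw4. Among all genes, 14.2% were called at W10, 12.4% at M4, 11.9% at P3.5, 12.9% at P14.5, 25.8% at L3, 24.7% at L10, 21.6% at Id2 and 11.5% at Iw4. *Cdh2* was called at all 8 time points, but with edgeR not at M4 (adjusted p = 0.0266), P3.5 (0.0104) or L10 (0.0143). *Cdh3* was called at 7, all but Id2. *Cdh6*, *Cdh13*, *Gja1*, *Cdh1* and *Gjb2* were called at 6 each, *Gjb1* at L3, L10 and Id2, and *Cdh4* at L3 and L10. *Cdh5* was called at no time point with limma, although its unadjusted p was under 0.05 at 7, and edgeR called it at 1, Id2. The luminal and basal libraries of a replicate came from the same sort, and with the sort as a block 7 more calls were made and none was lost. These were *Cdh1* at P14.5 (adjusted p = 0.00423) and Iw4 (0.00832), *Gjb2* at P14.5 (0.00661) and Iw4 (0.00386), *Cdh5* at Id2 (0.00627), *Cdh6* at Iw4 (0.00843) and *Cdh13* at Iw4 (0.0088), all with limma. With the block the 3 calls at Iw4 thus became 7. edgeR also called *Cdh6* at M4 (0.00368) and Iw4 (0.0081) and *Gjb2* at Iw4 (0.00868).

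With each library left out in turn, the 50 calls became 47 to 56, the lowest without P3.5 basal replicate 2 or L10 basal replicate 6. In all, 14 calls were lost and 12 gained without at least 1 library. *Cdh1* lost its call at M4 without any of the 6 M4 libraries or without P3.5 luminal replicate 2, P3.5 basal replicate 2 or P14.5 luminal replicate 5 (limma, adjusted p between 0.01 and 0.0547), at P3.5 without luminal replicate 4 (0.0101) and at W10 without basal replicate 6 (0.0137). *Cdh2* lost its call at M4 without luminal replicate 1 or 6 or basal replicate 2 (0.0199 to 0.0357), at P3.5 without luminal replicate 4 or 6 or basal replicate 2 or 4 (0.0107 to 0.0196), and at L10 without luminal replicate 5 (0.0281) or basal replicate 6 (0.0948). *Cdh4* lost its calls at L3 without luminal replicate 6 (0.013) or basal replicate 5 (0.115) and at L10 without basal replicate 6 (0.0625). *Cdh6* lost its call at P3.5 without basal replicate 2 (0.0114), and *Cdh13* at L10 without luminal replicate 4 or either basal replicate (0.0103 to 0.0175).

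Among the connexins, *Gja1* lost its call at P14.5 without basal replicate 3 (limma, adjusted p = 0.0358). *Gjb2* lost its call at W10 without luminal replicate 3 or 6 or basal replicate 6 (0.0122 to 0.0323) and at M4 without basal replicate 1 (0.0101), and *Gjb1* at L10 without luminal replicate 5 or 6 or either basal replicate (0.0167 to 0.0399). Of the 12 gains, *Gjb2* at Iw4 came with 14 and *Cdh1* at P14.5 with 9 different libraries left out, with adjusted p of 0.00487 or more and 0.00199 or more. *Cdh5* was gained at P14.5 without luminal replicate 2 (0.00817), at L10 without luminal replicate 5 (0.00403) or Id2 basal replicate 2 (0.0034), and at Id2 without basal replicate 4 (0.00733) or 6 (0.003). At Id2 *Cdh4* was gained without L3 basal replicate 5 (0.0022) or Id2 basal replicate 6 (0.00194), and *Cdh13* without the latter (0.00703). The other gains were *Cdh6* at M4 (0.00389) and Iw4 (0.000605) without Id2 basal replicate 4, *Gjb2* at P14.5 without L3 basal replicate 5 (0.00967), *Cdh1* at Iw4 without Id2 basal replicate 6 (0.00629), and *Cdh13* at Iw4 without P14.5 luminal replicate 2, Iw4 luminal replicate 5 or Id2 basal replicate 2 (0.00371 to 0.00944).

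**Figure D2:**
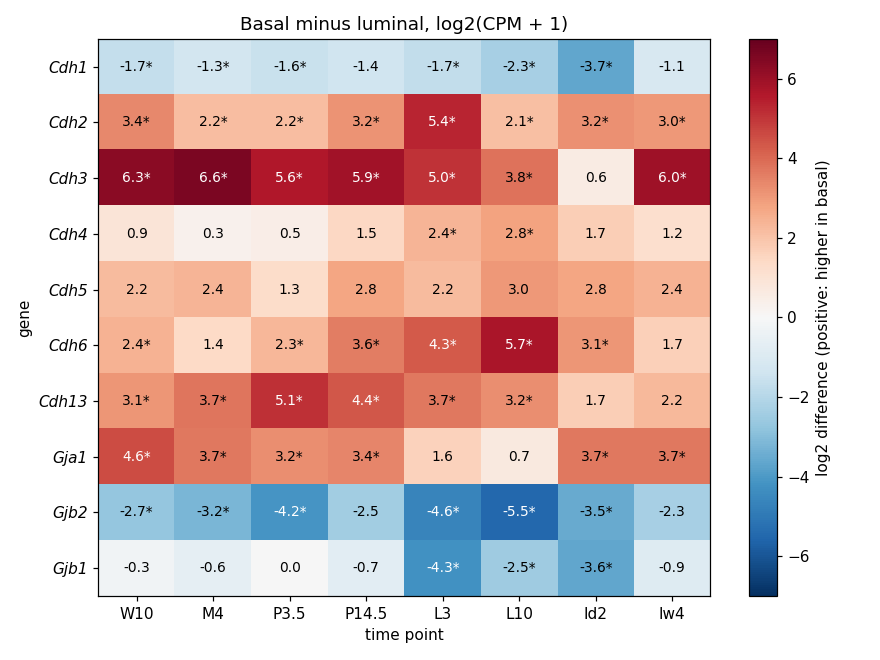
Difference between basal and luminal cells on the log2(CPM + 1) scale for each gene (rows) and time point (columns), with red for higher in basal and blue for higher in luminal cells. An asterisk marks a call, and *Gja1* has its smallest differences at L3 (1.64) and L10 (0.71), where it was not called.

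The gap between the cell types is given next for the members where its size on this scale ranged widely over the time points, a range that was tested only for lactation, as an interaction. *Gja1* differed by 4.58 (log2) at W10 and 3.69 at M4, but by 1.64 ± 0.63 at L3 (adjusted p = 0.0373) and 0.71 ± 0.71 at L10 (adjusted p = 0.472). At L10 the basal libraries held 96.2 and 85.1 CPM and the luminal ones 23.0, 185 and 38.4 CPM, so that the cell types overlapped, and the highest value was in the luminal library with the most basal marker RNA. *Gjb1* was not called before lactation and differed by -4.26 ± 0.60 at L3 (adjusted p = 4.55e-07). The difference of *Cdh6* was 1.40 ± 0.53 at M4 and 5.73 ± 0.59 at L10, but with luminal *Cdh6* at the floor this follows the basal level alone, and with edgeR it was 6.98 and 8.26. *Cdh3* differed by 0.56 ± 0.69 at Id2 (adjusted p = 0.586), with 0.94, 44.3 and 4.53 CPM in the basal libraries. All 3 lay below the 193 CPM or more of every other basal library, and all 3 were low in *Krt5*, *Krt14* and *Trp63*.

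Other junction genes are set beside the members from lists of named families. Of 12 tight junction genes, 10 were higher in luminal cells, led by the claudins *Cldn4* (-3.68), *Cldn7* (-3.61), *Cldn3* (-3.55) and *Cldn8* (-3.32), and the list's median difference was -3.25 against 0.02 for all genes. Of 19 catenins and adherens junction linkers, 9 were higher in basal and 3 in luminal cells (median 0.64). The nectins, adhesion molecules that sit beside cadherins, split between the cell types, with *Nectin3* at 3.64 and *Nectin4* at -3.20. The actin crosslinker *Flna* was at 3.12 and *Ctnnd2*, a p120 family catenin, at 3.01. Of 10 desmosome genes, 4 were higher in basal cells (*Pkp1*, *Dsc3*, *Dsg3* and *Dsp*) and 2 in luminal cells (*Pkp2* and *Dsg2*), with a median of 0.07.

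Among the 5 other classical cadherins in the table, *Cdh10* (2.73 ± 0.13) and *Cdh11* (2.72 ± 0.26) were higher in basal cells. Among 8 other connexins, *Gjc1* (3.45), *Gja4* (2.44) and *Gja5* (1.70) were higher in basal and *Gjb6* (-2.46), a close relative of *Gjb2*, in luminal cells. *Gja4* and *Gja5* are known as connexins of blood vessels. Of 3 pannexins, which form channels of another family, *Panx1* (1.19) was higher in basal cells. Of 5 repressors of *Cdh1*, *Snai2* (5.50 ± 0.18), *Zeb2* (3.64 ± 0.27) and *Twist1* (1.29 ± 0.20) were higher in basal cells, where *Cdh1* was lower. The part of these repressors in the level of *Cdh1* was not tested. The list medians were -0.09 for the cadherins, 1.06 for the connexins, 0.91 for the pannexins and 1.29 for the repressors.

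The second comparison was lactation (L3 and L10) against the non-pregnant time points in each cell type. In basal cells, 5 cadherins rose (*Cdh2*, *Cdh4*, *Cdh5*, *Cdh6* and *Cdh13*), while *Cdh1* and *Gja1* fell. In luminal cells, *Cdh3*, *Cdh5*, *Cdh13* and *Gjb1* rose. The calls were thus 7 of 10 in basal cells, against 16.5% of all genes (9.58% higher and 6.97% lower), and 4 of 10 in luminal cells, against 13.2% (7.37% higher and 5.83% lower). The study picked out *Cdh2*, *Cdh4*, *Cdh5* and *Cdh6* from these same libraries, so their direction is not independent evidence. The RNA of L3 and L10 was amplified in a batch that held no other time point, so the batch and lactation cannot be told apart.

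*Cdh6* was at 1.22 to 5.62 CPM in the 6 non-pregnant basal libraries (median 2.75) and at 10.5, 54.2 and 30.2 CPM at L3 and 50.1 and 75.1 CPM at L10. All 5 lactation libraries lay above all non-pregnant ones, and the rise was 3.45 ± 0.40 (log2, adjusted p = 1.22e-08, limma). *Gja1* was at 395 to 652 CPM in the non-pregnant basal libraries (median 450), and at 157, 156 and 147 CPM at L3 and 96.2 and 85.1 CPM at L10. Here too the groups did not overlap, and *Gja1* fell by 2.03 on the log2 scale (SE 0.47, adjusted p = 0.000913). *Cdh1* was at 298 to 631 CPM in non-pregnant basal libraries (median 480) and at 280, 230 and 116 CPM at L3 and 257 and 225 CPM at L10. It fell by 1.15 (log2, SE 0.27, adjusted p = 0.000982), without overlap. Without L3 basal replicate 6 the difference of *Cdh1* was -0.96 (adjusted p = 0.00577), just short of a 2-fold change.

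*Cdh2* was at 13.8 to 45.5 CPM in non-pregnant basal libraries (median 26.6) and at 70.7, 98.0 and 57.0 CPM at L3 and 56.1 and 96.6 CPM at L10, a rise of 1.51 ± 0.40 (adjusted p = 0.0031) without overlap. *Cdh13* was at 72.7 to 163 CPM in the non-pregnant libraries (median 113) and at 439, 446 and 289 CPM at L3 and 411 and 433 CPM at L10, a rise of 1.88 ± 0.53 (adjusted p = 0.00499), also without overlap. *Cdh4* was at 0.30 to 2.64 CPM in the non-pregnant libraries and at 1.04, 43.1 and 1.95 CPM at L3 and 4.37 and 11.0 CPM at L10. The groups overlapped for *Cdh4*, and its rise of 1.86 ± 0.48 (adjusted p = 0.00219) was 1.17 (adjusted p = 0.00895) without the L3 library at 43.1 CPM. Without L10 basal replicate 6, *Cdh2* (adjusted p = 0.0305), *Cdh4* (0.0286) and *Cdh13* (0.0217) were no longer called with limma. *Cdh2* also lost its call without M4 basal replicate 1 (adjusted p = 0.0105) and with edgeR (0.0106), and *Cdh2* (0.0142) and *Cdh13* (0.011) with a pseudocount of 0.1. *Cdh13* lost its call, at adjusted p between 0.0106 and 0.0217, without W10 replicate 3 or 5, M4 replicate 2, L3 replicate 4 or 5 or either L10 replicate of the basal cells.

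*Cdh5* was at 5.19 to 43.9 CPM in non-pregnant basal libraries (median 22.3) and at 281, 269 and 412 CPM at L3 and 386 and 224 CPM at L10. The groups did not overlap, and the rise was 3.80 ± 0.68 (adjusted p = 2.97e-05). In luminal libraries *Cdh5* went from 1.24 to 9.18 CPM (median 3.80) to 40.4, 155 and 47.0 CPM at L3 and 11.3, 119 and 32.0 CPM at L10, a rise of 3.47 ± 0.64 (adjusted p = 5.81e-05). *Cdh5* is an endothelial gene, and endothelial markers moved with it. All 17 were called higher in basal lactation (median 2.70 against -0.05 for all genes) and 12 of 17 in luminal lactation (median 1.94 against -0.01). Their sum was 77.6 to 381 CPM in the non-pregnant basal libraries and 1171 to 2511 CPM in the lactation ones, led by *Ptprb*, with none of the 17 at 0. In luminal libraries it was 42.2 to 182 CPM and then 211 to 996 CPM, with *Egfl7*, *Sox17* and *Sox18* at 0 in L10 replicate 4. The part of endothelial RNA in the result was not tested.

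**Figure D3:**
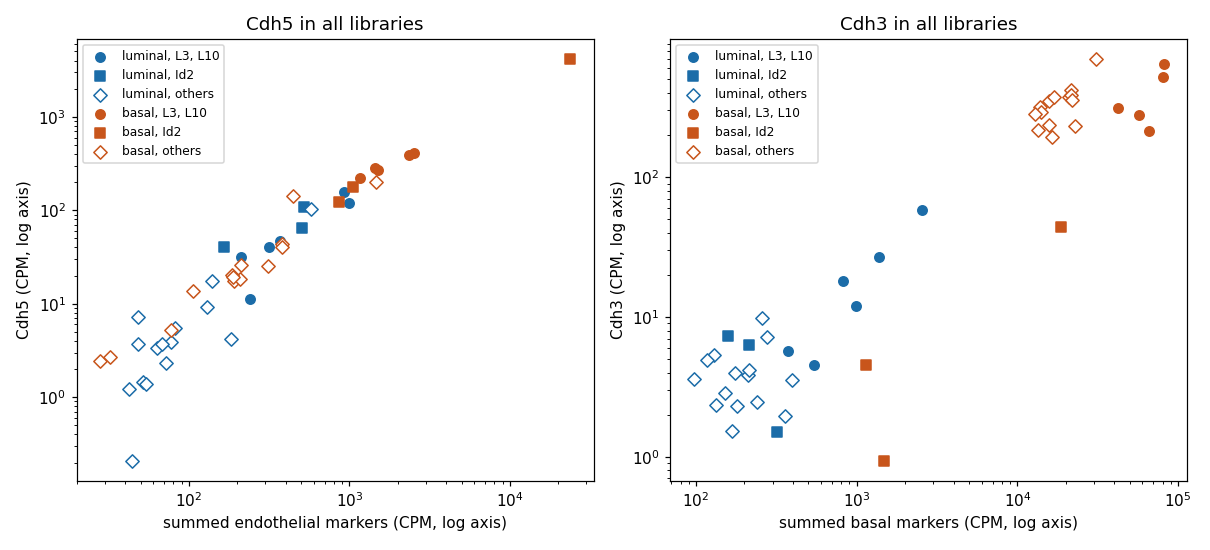
Left, *Cdh5* against the sum of 17 endothelial markers, and right, *Cdh3* against the sum of 9 basal markers, in every library (CPM, log axes). Blue is luminal and orange basal, with filled circles for L3 and L10, squares for Id2 and open diamonds for other time points. The highest *Cdh5* value (4160 CPM) lies in the library with the highest endothelial sum (23710 CPM), and the 2 basal libraries with the lowest *Cdh3* values are the Id2 libraries with the lowest basal sums.

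Markers of other cells moved with the basal lactation results as well. All 7 pericyte markers were called higher in basal lactation (median 4.47). Their sum, led by *Rgs5*, was 97.8 to 213 CPM in the non-pregnant and 1649 to 16370 CPM in the lactation libraries, where none was at 0. Of 8 fibroblast markers 4 were called higher (median 2.27), and their sum was 221 to 641 CPM and then 757 to 5787 CPM. Of 6 adipocyte markers 4 were not in the table. The 2 that were, *Lep* and *Plin1*, were both called higher (median 4.89), nearly all of their sum being *Lep*. The immune marker sum was 10.2 to 22.2 CPM and then 22.6 to 86.7 CPM, with 1 of 7 called higher, and the milk protein sum was 313 to 9745 CPM and then 8278 to 45770 CPM, with 5 of 6 called higher. Their part in the rise of *Cdh2*, *Cdh4*, *Cdh6* and *Cdh13* was not tested. The basal markers themselves summed to 13840 to 30600 CPM in the non-pregnant and 42090 to 81160 CPM in the lactation libraries, and 4 of 9 were called higher.

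In luminal cells *Gjb1*, near the floor in non-pregnant libraries, rose in lactation. It was at 0 to 1.17 CPM in the 6 non-pregnant luminal libraries and at 23.3, 10.2 and 80.7 CPM at L3 and 0.27, 14.4 and 10.9 CPM at L10. The rise was 3.09 ± 0.43 (adjusted p = 6.29e-07), and 5 of the 6 lactation libraries lay above all non-pregnant ones, the exception being L10 replicate 4. That library also had the lowest milk protein sum of the 6 lactation luminal libraries, 188100 CPM. *Gjb2* was at 24.9 to 245 CPM and then at 72.2 to 345 CPM in luminal cells, which did not pass (1.10 ± 0.47, adjusted p = 0.069). The sum of 7 immune markers was 9.22 to 17.8 CPM in the non-pregnant luminal libraries, led by *Cd68* or *Lyz2*, and 18.6 to 268 CPM in the lactation ones, led by *Cd68*, *Cd3e* or *Lyz2*, without overlap, and 2 of 7 were called higher. Each non-pregnant library had 1 or 2 of them at 0, as did L3 replicate 4 and L10 replicate 4 with 1 each. The part of immune RNA in the luminal lactation results was not tested.

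Luminal *Cdh3* was at 1.52 to 9.88 CPM in the non-pregnant libraries (median 3.35) and at 18.2, 27.0 and 4.56 CPM at L3 and 5.72, 58.2 and 12.0 CPM at L10, a rise of 1.80 ± 0.49 (adjusted p = 0.00394) with overlap. Luminal *Cdh13* was at 3.16 to 16.5 CPM (median 10.1) and then at 20.02, 61.6 and 18.9 CPM at L3 and 20.6, 96.1 and 41.8 CPM at L10, a rise of 1.84 ± 0.50 (adjusted p = 0.00409) without overlap. Both genes are far more abundant in basal cells. The basal marker sum of the luminal libraries was 134 to 257 CPM in the non-pregnant ones and 816, 1366 and 540 CPM at L3 and 375, 2549 and 988 CPM at L10, and 5 of 9 basal markers were called higher. The part of basal RNA in the rise of *Cdh3* and *Cdh13* was not tested. Neither gene was called without luminal L10 replicate 5 (adjusted p = 0.026 and 0.0195), L3 replicate 5 (0.0166 and 0.0182) or M4 replicate 6 (0.0121 and 0.0156). *Cdh3* was also not called without luminal W10 replicate 5 (0.0108), W10 replicate 6 (0.0145) or L3 replicate 4 (0.012), nor *Cdh13* without W10 replicate 3 (0.0107), by limma.

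Whether the change differed between the cell types was tested directly as an interaction. It passed for 3 members, *Cdh6*, *Gja1* and *Gjb1*, against 10.3% of all genes. *Gja1* fell in basal cells and had a luminal change of 0.94 ± 0.45 (adjusted p = 0.105), so that the difference between the changes, basal minus luminal, was -2.97 ± 0.65 (adjusted p = 0.00102). It also passed with edgeR (-3.31, adjusted p = 0.000664) and with a pseudocount of 0.1. *Gjb1* had a basal change of 0.15 ± 0.45 and a difference of -2.95 ± 0.62 (adjusted p = 0.000668), which did not pass with edgeR (-4.08, adjusted p = 0.099) or a pseudocount of 0.1 (-3.89, adjusted p = 0.0166). The difference of *Cdh6* was 3.09 ± 0.54 (adjusted p = 6.55e-05), but all 6 non-pregnant luminal libraries were at 0, so that its luminal fold change has no fixed size. With edgeR the *Cdh6* difference was -0.32 (adjusted p = 0.599) and with a pseudocount of 0.1 it was 2.10 (adjusted p = 0.0707). *Cdh4* was called without L3 basal replicate 4 (2.41, adjusted p = 0.00432), *Gjb2* without L10 basal replicate 5 (-2.68, 0.00583) and *Cdh3* without Id2 basal replicate 4 (-2.03, 0.00934). For all 10 members 6 unadjusted p were under 0.05, and edgeR called 1, *Gja1*. For *Cdh5* and *Cdh13*, which rose in both cell types, the differences were 0.33 ± 0.93 and 0.04 ± 0.72.

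**Figure D4:**
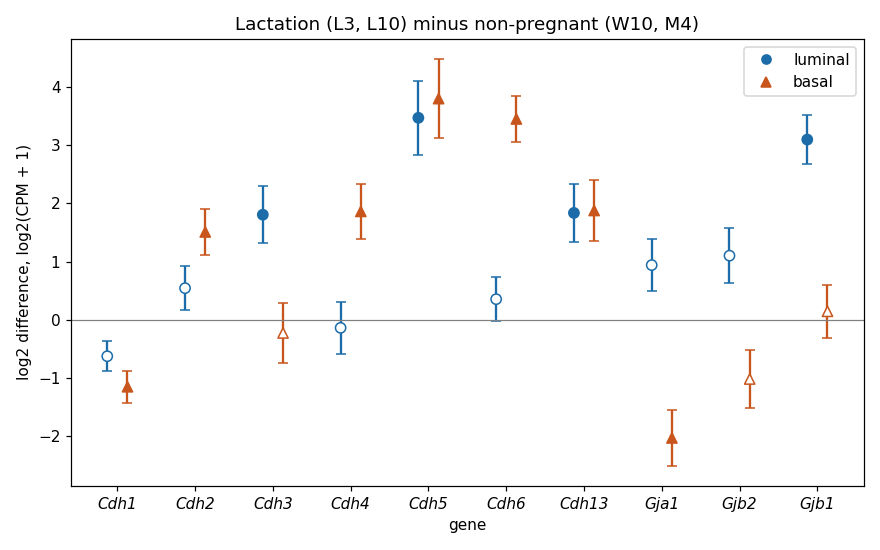
Change from non-pregnant (W10 and M4) to lactation (L3 and L10) of each gene on the log2(CPM + 1) scale, in luminal (circles) and basal cells (triangles). Bars are standard errors and filled symbols are calls. *Cdh6*, *Gja1* and *Gjb1* are the most separated between the cell types on this scale, and *Cdh5* and *Cdh13* by their similar values in both.

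Other junction genes in lactation are given by family. Of the 8 other connexins, *Gja5* (5.35), *Gja4* (5.25) and *Gjc1* (3.36) rose in basal cells, and *Gja5* (2.92), *Gja4* (1.81) and *Gjb5* (1.66) rose in luminal cells. *Gja5* and *Gja4* are known as vascular connexins. Of 3 pannexins, *Panx1* (-2.17) and *Panx2* (-1.16) fell in basal cells, and *Panx3* (1.94) rose in luminal cells. Of 10 desmosome genes, *Dsc2* (-3.02) and *Dsc1* (-1.09) fell in basal cells, whereas *Dsg3* (3.76), *Dsc3* (2.68), *Dsg1b* (1.81) and *Dsc1* (1.30) rose in luminal cells. The difference between the cell types passed for *Gjc1* (2.61), *Gja4* (3.44), *Gja5* (2.43) and *Gjb5* (-2.74), for *Panx1* (-2.47) and *Panx3* (-2.35), and for *Dsc3* (-4.41), *Dsg3* (-4.20), *Dsc1* (-2.38) and *Dsc2* (-2.06).

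Of the 19 catenins and linkers, *Ctnna3* (3.54), *Flna* (1.61) and *Arvcf* (1.23) rose and *Plekha7* (-2.12) and *Nectin4* (-1.88) fell in basal lactation, and *Ctnnal1* (1.78), *Fblim1* (1.33) and *Arvcf* (1.03) rose in luminal lactation. Of 12 tight junction genes 5 fell in basal cells, led by *Marveld2* (-2.35), *Ocln* (-1.73), *Cldn7* (-1.72) and *Cldn3* (-1.58), and the median luminal change was -0.08. Of 5 repressors of *Cdh1*, *Zeb2* (4.74), *Twist1* (1.83) and *Snai1* (1.82) rose in basal cells, where *Cdh1* fell. In luminal cells *Zeb2* (1.77) and *Snai2* (1.51) rose. The part of these repressors in the fall of *Cdh1* was not tested. Among the 5 other classical cadherins, *Cdh24* (-1.31) fell in basal cells. The difference between the cell types passed for *Ctnna3* (3.34), *Plekha7* (-2.43) and the actin-binding *Vcl* (1.19), for *Tjp3* (-2.17) among the tight junction genes and for *Zeb2* (2.97) among the repressors. Median changes in basal cells were -1.15 for the tight junction genes, 1.82 for the repressors, -0.58 for the desmosome genes and 0.20 for the catenins and linkers.

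Across the whole cycle, 6 members varied over the 8 time points in basal cells (*Cdh1*, *Cdh2*, *Cdh3*, *Cdh5*, *Cdh6* and *Gjb2*; limma F test, 44.5% of all genes) and 5 in luminal cells (*Cdh2*, *Cdh5*, *Cdh13*, *Gjb2* and *Gjb1*; 34% of all genes). With edgeR *Cdh2* was lost in basal cells (adjusted p = 0.0225), *Cdh4* (0.00207) and *Gja1* (0.00281) were gained there, and *Cdh3* (0.000942) was gained in luminal cells. The basal call of *Cdh2* was also lost without L3 basal replicate 5 (adjusted p = 0.0112), L10 basal replicate 6 (0.0108) or Id2 basal replicate 2 (0.0109). Calls were gained as well with single libraries left out, in basal cells *Gja1* without any 1 of 8 libraries (adjusted p between 0.0002 and 0.0095), *Cdh4* without 3 (0.00576 to 0.00854) and *Cdh13* without Id2 basal replicate 2 (0.00255), and in luminal cells *Cdh3* without 4 (0.00269 to 0.00799). Without basal Id2 replicates 2 and 6 the basal F test passed for 7 members, with *Cdh4*, *Cdh13* and *Gja1* gained and *Cdh2* (adjusted p = 0.0209) and *Cdh3* (0.0113) lost. Some pairs of time points shared their amplification batches, P3.5 with P14.5, L3 with L10, W10 with Id2 and M4 with Iw4, and 10 of 80 tests of members between them passed. Only M4 and Iw4 also shared a sequencing lane. In the other pairs each time point had its own lane, so lane and time point cannot be told apart. From P3.5 to P14.5 in basal cells *Cdh5* (4.90 ± 1.01, adjusted p = 0.00172) and *Gjb2* (3.59 ± 0.74, adjusted p = 0.00185) rose, against 3.64% of all genes. *Gjb2* went from 9.33, 6.64 and 5.34 CPM to 62.0 and 143 CPM. It was not called without P14.5 replicate 5 (adjusted p = 0.0526), and *Cdh5* was not called without P3.5 replicate 2 or 4 or either P14.5 replicate (adjusted p between 0.0102 and 0.0383). In this step 8 of 17 endothelial, 6 of 7 pericyte and 7 of 8 fibroblast markers were called higher in basal cells as well. Of the 6 milk proteins, which luminal cells make, 3 were called higher, and their sum in the basal libraries went from 415, 563 and 551 CPM to 5800 CPM in P14.5 replicate 3 and 48880 CPM in replicate 5, the replicate with the higher *Gjb2*. The sum of the 6 luminal markers *Krt8*, *Krt18*, *Krt19*, *Epcam*, *Elf5* and *Foxa1* was 471 to 780 CPM and then 456 and 1355 CPM, with 1 called higher. The part of these markers was not tested. In luminal cells no member passed with limma or edgeR, 4 had an unadjusted p under 0.05, and 1.52% of all genes were called. *Cdh5* was called in luminal cells without Id2 basal replicate 2 (3.40, adjusted p = 0.00367).

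Within the lactation batch, but between sequencing lanes, *Cdh2* rose from L3 to L10 in luminal cells (3.24 ± 0.53, adjusted p = 0.000619), against 0.381% of all genes. It went from 0.54, 1.30 and 0.70 CPM at L3 to 20.9, 10.1 and 19.95 CPM at L10, with no overlap. Without L3 luminal replicate 5, *Gjb1* was also called, lower at L10 (-2.86, adjusted p = 0.00744). In basal cells *Cdh2* was at 57.0 to 98.0 CPM at L3 and at 56.1 and 96.6 CPM at L10. No member passed in basal cells with limma or edgeR in this step (1 at an unadjusted p under 0.05, 1.14% of all genes called). From M4 to Iw4 no member passed in either cell type with limma or edgeR. At an unadjusted p under 0.05 there were 0 in basal and 1 in luminal cells, and 0.00586% and 0% of all genes were called.

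Calls were few in the steps up to lactation that cross a batch boundary. From W10 to P3.5 no member passed with limma or edgeR, against 6.76% of all genes in basal and 1.82% in luminal cells, and the unadjusted p was under 0.05 for 1 and 3 members. In luminal cells *Cdh2* was called without W10 replicate 3 (2.34, adjusted p = 0.00916) and *Cdh13* without P14.5 luminal replicate 2 (-2.66, 0.00968) or Id2 basal replicate 2 (-2.66, 0.00732). From P14.5 to L3 *Gjb2* fell in basal cells by 4.02 (SE 0.74, adjusted p = 0.000567; 3.89% of all genes) and *Gjb1* rose in luminal cells by 4.08 (SE 0.60, adjusted p = 1.51e-05; 6.17%). Without basal P14.5 replicate 5 the *Gjb2* fall was not called (adjusted p = 0.0441). *Cdh13* was called in luminal cells without P14.5 luminal replicate 2 (3.21, adjusted p = 0.00254), and *Cdh1* in basal (-1.45, 0.004) and luminal cells (-1.12, 0.00851) without Id2 basal replicate 6. *Gjb1* was at 0.46, 0.39 and 1.27 CPM in luminal P14.5 and at 23.3, 10.2 and 80.7 CPM at L3.

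In early involution both luminal connexins were far above their W10 levels. From W10 to Id2, which share a batch, *Gjb1* rose by 4.27 ± 0.60 (adjusted p = 2.55e-06), *Gjb2* by 3.65 ± 0.67 (adjusted p = 0.000112) and *Cdh5* by 3.44 ± 0.90 (adjusted p = 0.00528), against 10.4% of all genes. *Gjb2* was at 84.9, 24.9 and 59.7 CPM at W10 and at 929, 457 and 630 CPM at Id2, and *Gjb1* at 0.91, 0.35 and 0 CPM and then 47.8, 21.5 and 15.7 CPM. *Cdh5* lost its call with edgeR (adjusted p = 0.0151) and without W10 luminal replicate 3 or 6 or Id2 luminal replicate 2 or 4 (0.0173 to 0.0344). Without Id2 luminal replicate 6, the library rich in fibroblast markers, *Gjb1* (4.60, adjusted p = 7.62e-06), *Gjb2* (3.67, 0.000706) and *Cdh5* (3.79, 0.00809) still passed. In these luminal libraries the sum of the 17 endothelial markers was 182, 129 and 63.4 CPM at W10, with *Cldn5* and *Sox18* at 0 in replicate 6, and 507, 523 and 166 CPM at Id2, led by *Vwf* or *Ptprb*, with none at 0 (median change 1.68). The fibroblast marker sum was 139, 405 and 121 CPM at W10, led by *Dcn*, and 225, 490 and 5230 CPM at Id2, led by *Col1a1*, and 3 of 8 were called higher. Their part in the rise of *Cdh5*, *Gjb2* and *Gjb1* was not tested. In the same libraries all 6 milk protein genes and 6 of 7 immune markers were called higher, the immune sum being 44.5, 160 and 222 CPM with none at 0. From L10 to Id2 only *Cdh2* passed in luminal cells, falling by 3.38 (SE 0.53, adjusted p = 4.73e-05; 4.56% of all genes), to 0.59, 0.56 and 0.81 CPM. *Gjb1* was also called in this step, higher at Id2, without L3 luminal replicate 6 (2.10, adjusted p = 0.00979) or L10 luminal replicate 5 (2.77, 0.00408). By Iw4 *Cdh5*, *Gjb2* and *Gjb1* had fallen again from their Id2 levels (-3.98, -2.48 and -3.74 on the log2 scale, 10.5% of all genes), *Gjb2* not with edgeR (adjusted p = 0.0259), nor without any 1 of the Id2 luminal replicates or Iw4 luminal replicate 3 or 5 (0.0103 to 0.064), and *Cdh5* not without Id2 luminal replicate 4 (0.0117).

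In basal cells the Id2 results rest on the libraries described above. From W10 to Id2, *Cdh5* (3.99) and *Gjb2* (2.82) rose and *Cdh3* (-5.93) and *Cdh1* (-2.52) fell, against 17.4% of all genes. All 6 milk proteins were called higher in the same step, their sum being 2130, 1879 and 313 CPM in the basal W10 libraries and 59420, 54600 and 13470 CPM at Id2, led by *Csn2*. The sum of the 6 luminal markers was 376 to 1684 CPM at W10 and 142 to 467 CPM at Id2, with 3 called lower. The part of luminal RNA in the rise of *Gjb2* was not tested. Pericyte markers summed to 97.8 to 127 CPM in the basal W10 libraries and 2652 to 11270 CPM at Id2. Fibroblast markers summed to 221 to 352 CPM and then 3053 to 72330 CPM, and endothelial markers to 192 to 381 CPM and then 864 to 23710 CPM. For each of these lists every Id2 library, replicate 4 included, lay above all W10 ones. The part of these markers in the basal Id2 results was not tested. Without replicates 2 and 6, 1 basal Id2 library was left, whose own spread cannot be estimated, so only the size of the differences is given. They were -3.41 for *Cdh3*, -1.89 for *Cdh1*, 3.24 for *Cdh6*, 2.67 for *Cdh5* and 3.14 for *Gjb2*. *Cdh6* ranged from 3.23 to 49.7 CPM over all 3 basal Id2 libraries, and the highest was the one left. By limma *Gjb2* was not called without W10 basal replicate 6 (adjusted p = 0.0171). Without Id2 replicate 2 alone, neither *Cdh5* (0.0286) nor *Gjb2* (0.0114) was called. From L10 to Id2, 6 members were called, *Gja1* (2.75) and *Gjb2* (3.29) higher and *Cdh1* (-1.50), *Cdh2* (-2.30), *Cdh3* (-4.96) and *Cdh6* (-2.65) lower, against 13.3% of all genes, and 3 with edgeR. Without replicates 2 and 6 the differences of these 6 were smaller in size for all but *Gjb2* (3.61). They were 0.63 for *Gja1*, -0.87 for *Cdh1*, -1.24 for *Cdh2*, -2.43 for *Cdh3* and -0.30 for *Cdh6*. With single libraries left out, *Cdh1* lost its call without either L10 replicate or Id2 replicate 6 (adjusted p between 0.0393 and 0.0834). *Cdh2* and *Cdh6* lost theirs without L10 replicate 6 or Id2 replicate 2 or 6 (0.0125 to 0.0971), and *Gjb2* its without L10 replicate 6 (0.12). *Cdh13* was called, lower, without Id2 replicate 2 (-3.09, adjusted p = 0.00332). From Id2 to Iw4, *Cdh1* (2.55) and *Cdh3* (5.42) rose and *Cdh5* (-4.32) fell, against 17.4% of all genes. Without replicates 2 and 6, the differences were 1.93 for *Cdh1*, 2.89 for *Cdh3*, -2.99 for *Cdh5* and -3.87 for *Cdh6*, again from 1 basal Id2 library. Without replicate 2 alone *Cdh5* was not called (-2.72, adjusted p = 0.0126), and *Cdh6* was called without replicate 2 (0.00501) or 6 (0.00335).

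*Gja1* shows how far these 3 libraries differ. It was at 2191 CPM in basal Id2 replicate 2, the library rich in endothelial markers, and at 745 CPM in replicate 6, the one rich in fibroblast markers. In replicate 4 it was at 141 CPM, near the 85.1 to 157 CPM of the lactation libraries. Replicate 4 had *Acta2*, *Myh11*, *Tagln* and *Mylk* in the range of the other basal libraries. It was low in *Krt5*, *Krt14*, *Trp63*, *Oxtr* and *Cnn1*. *Cdh5* was at 4160, 179 and 122 CPM in replicates 2, 4 and 6, and *Cdh6* at 3.59, 49.7 and 3.23 CPM. The call of *Gja1* from L10 to Id2 was lost without replicate 2 (1.83, adjusted p = 0.0515), without replicate 6 (2.61, adjusted p = 0.0149) and without either L10 replicate (adjusted p = 0.0191 and 0.0505). At Id2 the basal against luminal difference of *Gja1* was 3.69 ± 0.63 with all 3 libraries and 1.57 without replicates 2 and 6. In that setting it was 3.09 for *Cdh3*, 3.30 for *Cdh4* and -3.20 for *Gjb2*, with replicate 4 as the only basal Id2 library.

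The genes most like each member over the 16 condition means are given as a description, with Pearson's r on log2(CPM + 1) among those of the 10580 genes with a mean of at least 5 CPM that have a symbol. The conditions share sorts and batches, and the 2 cell types form 2 clusters of points. *Cdh3* was closest to *Sdk2* (0.987), *Trp63* (0.986), the basal transcription factor p63, and *1600014C10Rik* (0.985). *Cdh1* was closest to *Fam83h* (0.967), *Mpzl2* (0.965) and *Esrp1* (0.957), an epithelial splicing factor. *Cdh5* was closest to *Cd93* (0.993), *Pecam1* (0.991) and *Robo4* (0.99), all known from endothelium. *Cdh6* was closest to *Cap2* (0.98), *Dmd* (0.972), which encodes dystrophin, and *Tbx2* (0.971), and *Cdh13* to *Clmp* (0.963), *Socs3* (0.944) and *Chst15* (0.943).

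*Gja1* was closest to *Igsf10* (0.962), *Lrch2* (0.961) and *Serpina3i* (0.959), the last of a multigene family whose reads are uncertain. *Gjb2* was closest to *Ogfrl1* (0.978), *Atp7b* (0.97), a copper transporter, and *Zfp750* (0.965). *Gjb1* was closest to *1810065E05Rik* (0.967), *Ucp3* (0.955), a mitochondrial uncoupling protein, and *Qsox1* (0.952). *Cdh2* was closest to *Hmgxb4* (0.97), *Emsy* (0.941) and *Rgs2* (0.939), and *Cdh4* to *Mmp17* (0.959), *Slc6a17* (0.955) and *Bnip2* (0.953).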

How the data were processed

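The deposited signal of each gene and library was made by the authors: RNA (5 ng) was amplified with the Ovation RNA-Seq System V2 and sequenced, reads were aligned to mouse build mm9 by GSNAP, counted with htseq-count for Ensembl genes, tools that the submitters' processing notes also name, and divided by edgeR's effective library size to give CPM. The authors filtered out low genes (under 1 CPM in 3 samples) and genes of extreme abundance that varied little, and set aside basal P14.5 replicate 2, which was not analysed here. Every column of the table was used (0 left out). The values of each library were whole multiples of 1 read (100% within 0.01), so reads were recovered. Amplified reads without molecular identifiers are not independent molecules, so the floor of 3 reads covers counting error only.

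log2(CPM + 1) was fitted with limma 3.58.1 (R 4.3.3), 1 mean for each of 16 conditions and a mean-variance trend. This scale understates changes of low genes. Replicates are separate sorts, each of pooled mice. Luminal and basal libraries share sort dates in the labels, and their deviations correlated across genes in 22 pairs (median 0.31, from -0.034 to 0.484), so the sort was also used as a block. Genes named besides the members were, of each list, up to 4 called genes with the largest differences, and the 3 genes most like each member. *Dsp*, *Dsg2* and *Arvcf* were added after their values were seen, to complete counts of calls, and some genes of the lists are not reported here. Members and lists were chosen with earlier results of these data known. Of the gene identifiers, 16897 matched a symbol in GENCODE vM21 (GRCm38), from which exon lengths were taken, and 4 members matched the RefSeq promoter table. No exon base of a member is shared with another protein-coding gene. The fit was tested on simulated data. Alternatives were a pseudocount of 0.1, a mean of at least 5 CPM, median ratio scaling, edgeR 4.0.16, the block, a false discovery rate of 0.05, each library left out, no Id2 libraries and, added after seeing the data, basal Id2 replicates 2 and 6 left out.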

Additional observations from a re-analysis of the deposited data

Results flagged for a closer look

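The 3 results here differed between the cell types by the interaction test, the change from non-pregnant to lactation in basal minus that in luminal cells. *Gja1* differed by -2.97 (log2): the medians went from 450 to 147 CPM in basal and from 31.3 to 46.3 CPM in luminal cells. *Gjb1* differed by -2.95: its luminal median went from 0.59 to 12.7 CPM, while the basal libraries stayed between 0 and 1.95 CPM. *Cdh6* differed by 3.09: its basal median went from 2.75 to 50.1 CPM, while the luminal libraries stayed between 0 and 1.05 CPM. *Gja1* also passed with edgeR (-3.31, adjusted p = 0.000664) and with a pseudocount of 0.1 (-3.00, adjusted p = 0.00141). *Gjb1* passed with neither (edgeR -4.08, adjusted p = 0.099; pseudocount 0.1 -3.89, adjusted p = 0.0166). The test of *Cdh6* failed with both as well, and its sign turned with edgeR (-0.32, adjusted p = 0.599; pseudocount 0.1 2.10, adjusted p = 0.0707). Which part batch or other cell types have in these differences was not tested.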

How the results depend on the processing

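The count of members called in the interaction was 3, and became 1 with a pseudocount of 0.1, 1 with edgeR and 6 at a false discovery rate of 0.05. The share of all genes called was counted in the main setting only (10.3% for the interaction). Counts in other settings therefore cannot be set against the share of all genes. The calls in the 4 steps between batches were 15, and 23 at a false discovery rate of 0.05. With each library left out in turn, the calls in lactation were 4 to 7 in basal and 2 to 4 in luminal cells, the lowest without basal L10 replicate 6 and without luminal M4 replicate 6, L3 replicate 5 or L10 replicate 5. With edgeR the luminal lactation change of *Cdh2* was -0.12, and the interaction was -0.45 for *Cdh5*, -0.32 for *Cdh6* and -0.30 for *Cdh13*. The interaction of *Cdh13* was also -0.0615 with a pseudocount of 0.1, and -0.0054 with the replicate block. None of these was called with the reversed sign, and none but *Cdh6* was called before. The replicate block made 7 more calls, all between cell types at single time points, and lost none. With a library left out, the interaction ranged from -0.22 to 0.32 for *Cdh13* and from -0.0624 to 0.76 for *Cdh5*, and the basal lactation change of *Gjb1* from -0.10 to 0.29. Without basal Id2 replicates 2 and 6, an alternative chosen after seeing the data, the calls at single time points were 58 in place of 50 and those between batches 13 in place of 15. In that setting 1 basal Id2 library is left, whose own spread cannot be estimated. The 2-replicate conditions, the amplification batches and sequencing lanes that follow the time points and the low reads of *Cdh4*, *Cdh6* (luminal) and *Gjb1* (basal) also limit what can be told.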
